A study of Mus musculus with 2 samples.

Results

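The 40 Hox cluster genes were examined among the 31057 gene features counted in single cells of the newborn mouse ovary. A feature was taken as a member when its symbol was Hoxa, Hoxb, Hoxc or Hoxd followed by a number, which left out the antisense and opposite-strand transcripts of the same loci. The members comprised 11 Hoxa, 10 Hoxb, 9 Hoxc and 10 Hoxd features with 39 symbols, because Hoxd4 was listed under 2 identifiers. The study profiled whole ovaries of CD1 pups at postnatal day 2, without treatment, by droplet-based 3′ RNA sequencing. There were 2 libraries, biological replicates 1 and 2 (library 1 and library 2 below), each made from 6 ovaries of 3 pups of a single mother. Animals were thus pooled, and no cell could be traced to a pup.

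Hox genes encode homeodomain transcription factors that give cells along the body axis their positional identity. They lie in 4 clusters in the order in which they are deployed, so that low-numbered paralogs mark anterior levels and high-numbered paralogs mark posterior levels, and adjacent genes of a cluster tend to be switched on together and to be kept silent together by Polycomb proteins. In the reproductive tract the posterior HoxA genes are known for patterning the oviduct, uterus and cervix, whereas the question here was which clusters and paralogs mark the cell types of the ovary.

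In GRCm38, Hoxa spanned chr6:52155590-52260880 on the minus strand, Hoxb chr11:96194316-96368256, Hoxc chr15:102921103-103036852 and Hoxd chr2:74668310-74765142, the last 3 on the plus strand. Of the 40 features, 39 were found in the GENCODE annotation. The 250 bases before the annotated start site are shown for a member of each cluster, chosen because the clusters differed between cell types, and for Hoxa13, which was counted only in germ cells. The sequences are from RefSeq (GRCm38.p6), 5′ to 3′ on the strand of the gene, with CpG dinucleotides in capitals.
Hoxa5, chr6:52204588-52204837, minus strand: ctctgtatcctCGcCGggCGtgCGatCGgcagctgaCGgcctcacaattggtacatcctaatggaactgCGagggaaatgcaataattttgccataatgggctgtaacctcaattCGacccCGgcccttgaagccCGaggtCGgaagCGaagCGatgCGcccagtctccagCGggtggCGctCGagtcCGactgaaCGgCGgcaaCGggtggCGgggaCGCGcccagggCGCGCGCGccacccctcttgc
Hoxa13, chr6:52260881-52261130, minus strand: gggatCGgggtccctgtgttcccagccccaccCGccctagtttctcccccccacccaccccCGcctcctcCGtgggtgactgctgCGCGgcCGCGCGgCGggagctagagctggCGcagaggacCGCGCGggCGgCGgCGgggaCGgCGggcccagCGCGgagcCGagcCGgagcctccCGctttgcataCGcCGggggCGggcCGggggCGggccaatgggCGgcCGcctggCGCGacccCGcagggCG
Hoxb4, chr11:96318017-96318266, plus strand: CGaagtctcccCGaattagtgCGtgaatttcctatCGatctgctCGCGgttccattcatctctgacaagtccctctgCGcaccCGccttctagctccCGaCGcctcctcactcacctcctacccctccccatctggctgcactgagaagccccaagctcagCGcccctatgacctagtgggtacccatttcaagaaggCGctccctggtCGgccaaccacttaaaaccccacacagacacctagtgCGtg
Hoxc4, chr15:103034145-103034394, plus strand: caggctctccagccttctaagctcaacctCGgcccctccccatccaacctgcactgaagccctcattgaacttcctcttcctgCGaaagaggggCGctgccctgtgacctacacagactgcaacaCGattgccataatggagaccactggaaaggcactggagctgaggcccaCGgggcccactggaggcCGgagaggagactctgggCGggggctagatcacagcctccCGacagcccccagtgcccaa
Hoxd9, chr2:74697513-74697762, plus strand: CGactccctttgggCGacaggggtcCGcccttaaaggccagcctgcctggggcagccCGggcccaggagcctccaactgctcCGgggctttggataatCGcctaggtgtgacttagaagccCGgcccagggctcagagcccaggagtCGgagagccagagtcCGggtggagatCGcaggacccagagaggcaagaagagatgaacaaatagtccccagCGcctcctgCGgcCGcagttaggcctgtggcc
Promoters of 22 member genes (24 start sites) were in the table. Their median CpG number was 12.5 in 250 bases, against 6.0 over all 32851 promoters, and 3 of the 24 lay below that median. The Hoxa13 window held 35 CpG and the Hoxc4 window 8. The motif TGATTNAT, which Hox and Pbx proteins bind together, was found on either strand in 2 of the 24 windows (8.33%) and in 2.82% of all promoters, and the Meis motif TGACAG in 2 (8.33%) and 15.9%.

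Cells were named from marker genes in clusters made without any Hox gene. Interstitial-like cells (1396 and 2487 in library 1 and library 2) were named from genes such as Col1a2 and Dcn, perivascular-like cells (53 and 51) from Rgs5, mesothelial-like cells (187 and 294) from Upk3b, granulosa-like cells (1657 and 616) from Foxl2 and Fst, endothelial-like cells (60 and 33) from Cdh5 and germ-like cells (235 and 652) from Ddx4 and Dazl. The suffix is left out below. Wnt6, listed as a granulosa marker, stood at 406 and 394 CPM in mesothelial cells and at 396 and 385 in granulosa cells, so it did not tell these types apart. Irx3, also listed as a granulosa marker, stood at 247 and 233 CPM in mesothelial cells and at 137 and 210 in granulosa cells. The summed granulosa markers reached 39.4% and 45.7% of their granulosa level in mesothelial cells. Perivascular and endothelial cells rested on the fewest transcripts, with 241420 to 264525 and 393251 to 959236 UMIs (unique molecular identifiers, each a captured transcript) per library, against 3166162 or more in each of the other types. Levels are given as CPM (counts, here UMIs, per 1000000 UMIs of a cell type) in library 1 and then library 2. A UMI is counted once for each transcript whatever its length, so levels were not scaled to gene length. As UMIs were summed per type, fewer cells using a gene and fewer transcripts per cell cannot be told apart in them.

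The Hox genes made up a small and type-dependent part of the transcriptome. All members together reached 488 and 601 CPM in perivascular cells, 321 and 351 in mesothelial, 284 and 380 in interstitial, 180 and 280 in endothelial, 122 and 215 in granulosa and 7.38 and 18.1 in germ cells. Library 2 gave the higher value in each of the 6 types. The ranges of the 2 libraries overlapped for interstitial and mesothelial cells and for granulosa and endothelial cells, whereas germ cells lay below all others and perivascular cells above all others. When each cell was thinned to 2000 UMIs, 52.8% and 66.7% of perivascular cells had a UMI of any Hox gene, against 41.2% and 50.7% of interstitial, 41.2% and 46.0% of mesothelial, 20.5% and 32.2% of granulosa, 18.3% and 36.4% of endothelial and 2.24% and 3.36% of germ cells. Without thinning the means were 81.7%, 80.8%, 92.9%, 69.7%, 74.2% and 36.9% in that order, at median depths from 4275 UMIs a cell (perivascular, library 2) to 76739 (germ, library 1).

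**Figure D1:**
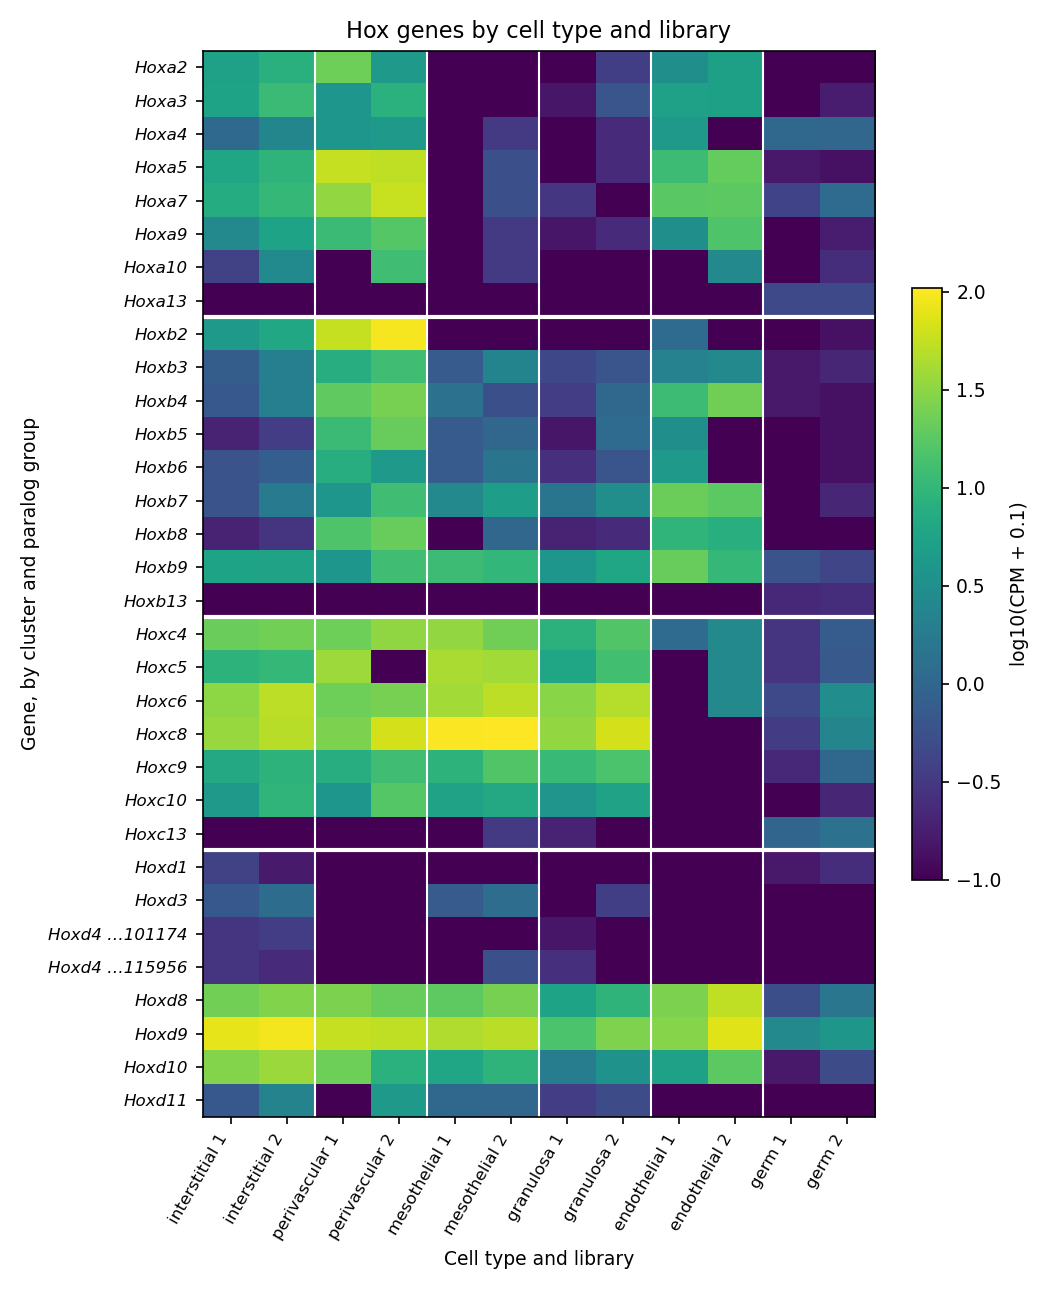
Level of the Hox genes shown, each with more than 3 UMIs (rows, by cluster and paralog number) in 6 cell types and 2 libraries (columns), as log10 of CPM plus 0.1. Hoxa rows are dark in mesothelial and granulosa cells and Hoxc rows are dark in endothelial cells. Hoxa13 and Hoxb13 were counted in germ cells alone, the type with the most UMIs over both libraries.

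The 4 clusters were distributed differently. Hoxa genes summed to 136 and 157 CPM in perivascular cells, 44.8 and 66.1 in endothelial cells and 28.1 and 49.4 in interstitial cells. In mesothelial cells 0 and 7 Hoxa UMIs were counted, and in granulosa cells 6 and 9, which came to 0 and 1.55 and to 0.305 and 1.18 CPM. Hoxb genes were highest in perivascular (125 and 203) and endothelial cells (74.0 and 61.0), with 12 and 18.1 in interstitial, 17.4 and 20.2 in mesothelial and 6.0 and 12.1 in granulosa cells. Hoxc genes had 1 and 3 UMIs in endothelial cells (1.04 and 7.63 CPM), against 232 and 242 CPM in mesothelial, 121 and 153 in perivascular, 108 and 153 in interstitial and 93.1 and 161 in granulosa cells. Hoxd genes were counted in every somatic type, from 22.3 and 40.4 CPM in granulosa cells to 135 and 159 in interstitial cells.

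**Figure D2:**
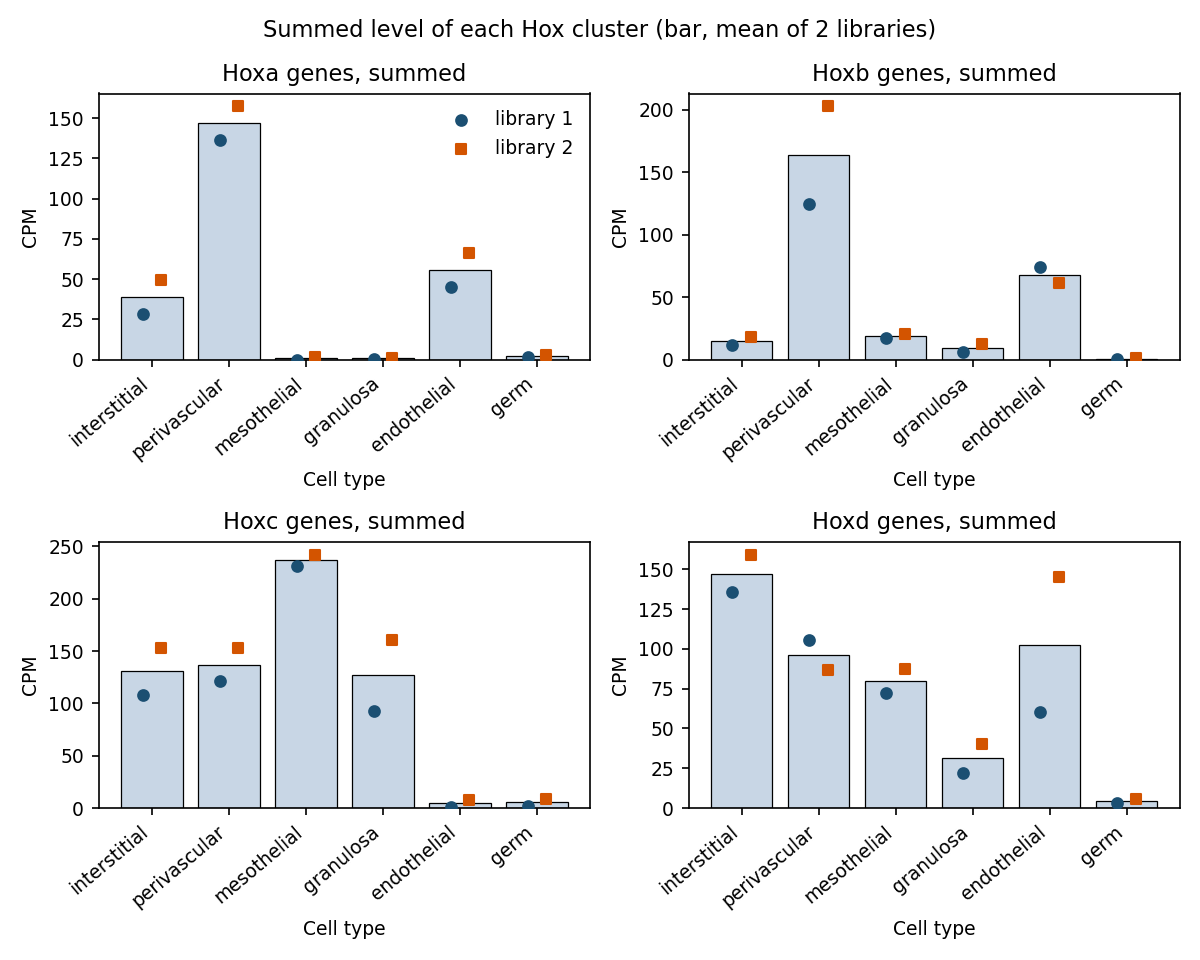
Summed CPM (y axis) of the genes of each Hox cluster (panels) in the 6 cell types (x axis), with points for the libraries and bars for their mean. Hoxa is near 0 in mesothelial and granulosa cells, Hoxc is near 0 in endothelial cells, and Hoxc peaks in mesothelial cells at 232 and 242.

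The share of each cluster among all Hox UMIs was close between libraries in some types and not in others. Hoxc genes gave 76.5% and 75.0% of all Hox UMIs in granulosa cells and 72.1% and 69.0% in mesothelial cells, against 38.2% and 40.3% in interstitial and 24.8% and 25.5% in perivascular cells. Hoxa genes gave 27.9% and 26.2% in perivascular and 24.9% and 23.6% in endothelial cells, against 9.91% and 13.0% in interstitial cells. In endothelial cells, however, Hoxb genes gave 41.0% and 21.8% and Hoxd genes 33.5% and 51.8%, in perivascular cells Hoxd genes gave 21.7% and 14.5%, and in germ cells Hoxc genes gave 26.4% and 48.1%. By paralog number, the anterior genes of groups 1 to 3 gave 19.4% and 20.0% of the Hox UMIs of perivascular cells, 5.85% and 7.60% in interstitial cells, and below 1% in mesothelial and granulosa cells (0.394% and 0.949%, and 0.334% and 0.733%). The central genes of groups 4 to 8 gave between 48.6% and 75.1% in every somatic type. The posterior genes of groups 9 to 13 gave 45.6% and 42.7% in interstitial cells, most of it from Hoxd9 and Hoxd10.

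Members were tested with edgeR's quasi-likelihood test on UMIs summed per library and type, and called at a Benjamini-Hochberg adjusted p under 0.05 over all 14642 genes tested and a fold change over 2. The SE given with a log2 difference is its size divided by the square root of the F statistic of that test, not a fitted standard error. With 2 libraries, p-values measure the spread between 2 pools of pups. Shares over all genes are given for the main test only, so counts from other settings have no such background beside them. The low-count filter passed 25 of the 40 members: 7 Hoxa (Hoxa2, Hoxa3, Hoxa4, Hoxa5, Hoxa7, Hoxa9 and Hoxa10), all 8 of Hoxb2 to Hoxb9, 6 Hoxc (Hoxc4, Hoxc5, Hoxc6, Hoxc8, Hoxc9 and Hoxc10) and 4 Hoxd (Hoxd8 to Hoxd11). Of the 15 others, Hoxa11, Hoxb1, Hoxc12 and Hoxd12 had no UMI in any named cell. The other 11 features included Hoxa6, Hoxa13, Hoxb13, Hoxc11, Hoxc13, Hoxd1, Hoxd3, Hoxd13 and both Hoxd4 entries, among which Hoxd3 had the most somatic UMIs (6 and 17 in interstitial cells) and Hoxc13 the most in germ cells (14 and 34). A gene could pass the filter through the type in which it was high, so the 25 do not stand for all members. Reads can be split where genes overlap on the same strand. That was the case for over 10% of the exonic bases of 3 features, Hoxd3 (62.3%) and Hoxd4 (52.3%), which share exons, and Hoxa2 (15%, with Gm28308). Among the tested members, Hoxa3, Hoxa4, Hoxa7, Hoxb2, Hoxb3 and Hoxb5 overlap antisense transcripts. Whether the counting used strand is not given in the sources used here.

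Granulosa cells and interstitial cells were compared directly, and Hoxa transcripts were counted mostly in the interstitial cells. In granulosa cells 13 of the 25 members were lower (12.6% of all genes were) and 0 higher (14.8% of all genes), with a median log2 difference over the tested members of -1.72 against 0.00 over all genes. At an unadjusted p under 0.05 in edgeR 14 were lower and 0 higher, and DESeq2 called 11 lower and 0 higher. All 7 tested Hoxa genes were among the lower ones. Granulosa cells had 6 and 9 Hoxa UMIs in all, so these genes passed the low-count filter through other types. Their being lower was thus largely set in advance. Hoxa5, known for lung and axial patterning, had 62 and 145 UMIs in interstitial cells and 0 and 1 in granulosa cells, at 6.06 and 9.19 against 0 and 0.131 CPM, a ratio of 217 (95% counting interval 38.6 to 8620). Hoxa7 had 75 and 158 UMIs against 4 and 0, a log2 difference of -5.86 ± 0.73 (SE; adjusted p = 6.6e-05). Hoxa3 had 56 and 179 UMIs against 1 and 4 (-5.38 ± 0.76, adjusted p = 0.00025). Hoxa2 (181 UMIs in all against 2), Hoxa4 (47 against 1) and Hoxa9 (113 against 2) were likewise lower in both libraries, and Hoxa10, with 44 UMIs against 0, was at least 15.4-fold lower. For each of these 7 genes both interstitial values lay above both granulosa values. The genes had already been called lower in the same counts, and the share over all genes was not computed, so this adds no support.

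Outside Hoxa, Hoxb2 had 42 and 97 UMIs in interstitial cells and 0 in granulosa cells of either library, at least 48.6-fold lower. Like the Hoxa genes, it passed the low-count filter through other types, so its being lower was largely set in advance. Its neighbour Hoxb3 and the genes Hoxb4 to Hoxb9 were not called. The Hoxd genes were lower in granulosa cells but still counted there. Hoxd10 stood at 28.7 and 36.4 CPM in interstitial and 1.78 and 3.41 in granulosa cells (log2 difference -3.82 ± 0.43, adjusted p = 3.4e-05), Hoxd9 at 81.1 and 91.4 against 14.4 and 27.1 (-2.14 ± 0.33, adjusted p = 0.00029) and Hoxd8 at 23.7 and 27.6 against 5.54 and 9.18 (-1.91 ± 0.37, adjusted p = 0.0015). For Hoxd11 (-2.26 ± 0.76, adjusted p = 0.039) the call was lost with the library as a block (adjusted p = 0.050), with DESeq2 (adjusted p = 0.12) and without library 2 (-0.79). Of the Hoxc genes, Hoxc4 lay at the 2-fold limit (-1.0 ± 0.33, adjusted p = 0.030; -0.64 without library 1) and Hoxc5, Hoxc6, Hoxc8, Hoxc9 and Hoxc10 were not called, with log2 differences between -0.70 (Hoxc10) and 0.62 (Hoxc9). Interstitial cells as named here carried 101 and 154 CPM of Foxl2, against 319 and 330 in granulosa cells.

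Mesothelial cells, the epithelium that covers the ovary, had few Hoxa transcripts, as had granulosa cells. Against interstitial cells, 8 of the 25 members were lower (10.8% of all genes) and 1 was higher (12.6% of all genes), with a median log2 difference of -0.22 against -0.05 over all genes. With the library as a block, which pairs types of the same pups, 9 were lower and 3 higher (Hoxb7, Hoxc5 and Hoxc8). Hoxa2, Hoxa3 and Hoxb2 had no UMI in mesothelial cells of either library, which made them at least 17.8-fold, 23.1-fold and 13.7-fold lower than in interstitial cells. Like the other tested Hoxa genes, they passed the low-count filter through other types, so their being lower was largely set in advance. Hoxa5 had 0 and 2 UMIs, Hoxa7 0 and 2, Hoxa9 0 and 1 and Hoxa4 0 and 1. Of these 4, Hoxa4 (-3.57 ± 1.19, adjusted p = 0.036) was not called by DESeq2 (adjusted p = 0.059). Hoxd10 stood at 6.0 and 9.11 CPM against 28.7 and 36.4 (-2.06 ± 0.42, adjusted p = 0.0027), whereas its neighbours Hoxd8 (-0.22 ± 0.36) and Hoxd9 (-0.82 ± 0.32, adjusted p = 0.069) were not called.

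The higher gene was Hoxc5, at 43.3 and 39.8 CPM in mesothelial cells and 8.89 and 10.3 in interstitial cells (2.13 ± 0.46, adjusted p = 0.0038). DESeq2 called 3 higher, adding Hoxb7 and Hoxb9. Hoxc8, which patterns the thoracic region, was the most abundant Hox transcript of mesothelial cells at 101 and 104 CPM. It stood at 35.3 and 49.0 in interstitial cells, a log2 difference of 1.30 ± 0.48 that was not called without the block (adjusted p = 0.059).

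Granulosa cells, the somatic cells that enclose the oocyte, were also compared with mesothelial cells. There 6 of the 25 members were lower in granulosa cells (8.26% of all genes) and 0 higher (7.53% of all genes), with a median log2 difference of -1.26 against 0.03. At an unadjusted p under 0.05 in edgeR 8 were lower and 0 higher, and DESeq2 called 6 and 0. Hoxc5 showed the largest called difference, at 5.95 and 12.5 CPM in granulosa cells against 43.3 and 39.8 (-2.30 ± 0.47, adjusted p = 0.0045). Hoxd10 (-1.75 ± 0.49, adjusted p = 0.025), Hoxd8 (-1.69 ± 0.39, adjusted p = 0.0091), Hoxc4 (-1.35 ± 0.35, adjusted p = 0.016), Hoxd9 (-1.33 ± 0.33, adjusted p = 0.014) and Hoxb9 (-1.26 ± 0.37, adjusted p = 0.030) followed. Of the 6 Hoxc genes tested, Hoxc6, Hoxc8, Hoxc9 and Hoxc10 were not called. Without library 1 the differences of Hoxb9, Hoxc4 and Hoxd9 were -0.77, -0.64 and -0.97, below the 2-fold limit. The calls of Hoxd10 and Hoxd8 were lost with cells gated one by one (-0.81, adjusted p = 0.48, and -1.08, adjusted p = 0.15) and with cells thinned to equal depth (adjusted p = 0.19 and 0.087).

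Within the granulosa cells the Hox level was not uniform. The 5 granulosa clusters, made without Hox genes, are described in the order of their Hoxd9 level in library 1, with no test. Hoxd9 stood at 3.24 and 5.70 CPM in the cluster led by Hsd3b1, Amh and Inhbb (493 and 126 cells), at 8.35 and 11.8 in that led by Serpina1b, at 20.1 and 27.6 in that led by Colec11 and Cga, at 26.5 and 20.4 in that led by Cxcl10 and at 58.4 and 48.2 in that led by Ly6d, Pcp4 and Crygb (104 and 222 cells). Mesothelial cells had 45.8 and 50.9. Hoxc8 ran from 17.7 and 22.8 in the Amh cluster to 74.1 and 107 in the Ly6d cluster, and Hoxc5 from 2.47 and 5.13 to 25.0 and 22.4.

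Not every member followed this order. Hoxc9 stood at 12.3 and 14.3 in the Amh cluster and at 19.8 and 14.8 in the Ly6d cluster, and Hoxc6 at 16.4 and 25.1 and at 31.3 and 54.1, with its highest library 1 value in the Cxcl10 cluster (45.9). All Hox genes together ran from 67.4 and 94.1 to 268 and 325 CPM. The summed mesothelial markers were 7.56 and 13.1 CPM in the Amh cluster, 138 and 105 in the Ly6d cluster and 1579 and 1489 in mesothelial cells, and their part in the Hox levels was not tested. The libraries contributed unequally, since the Amh cluster held most of its cells from library 1 and the Ly6d cluster from library 2. Granulosa cells as a whole therefore had different mixtures in the 2 libraries, beside their Hox sums of 122 and 215.

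**Figure D3:**
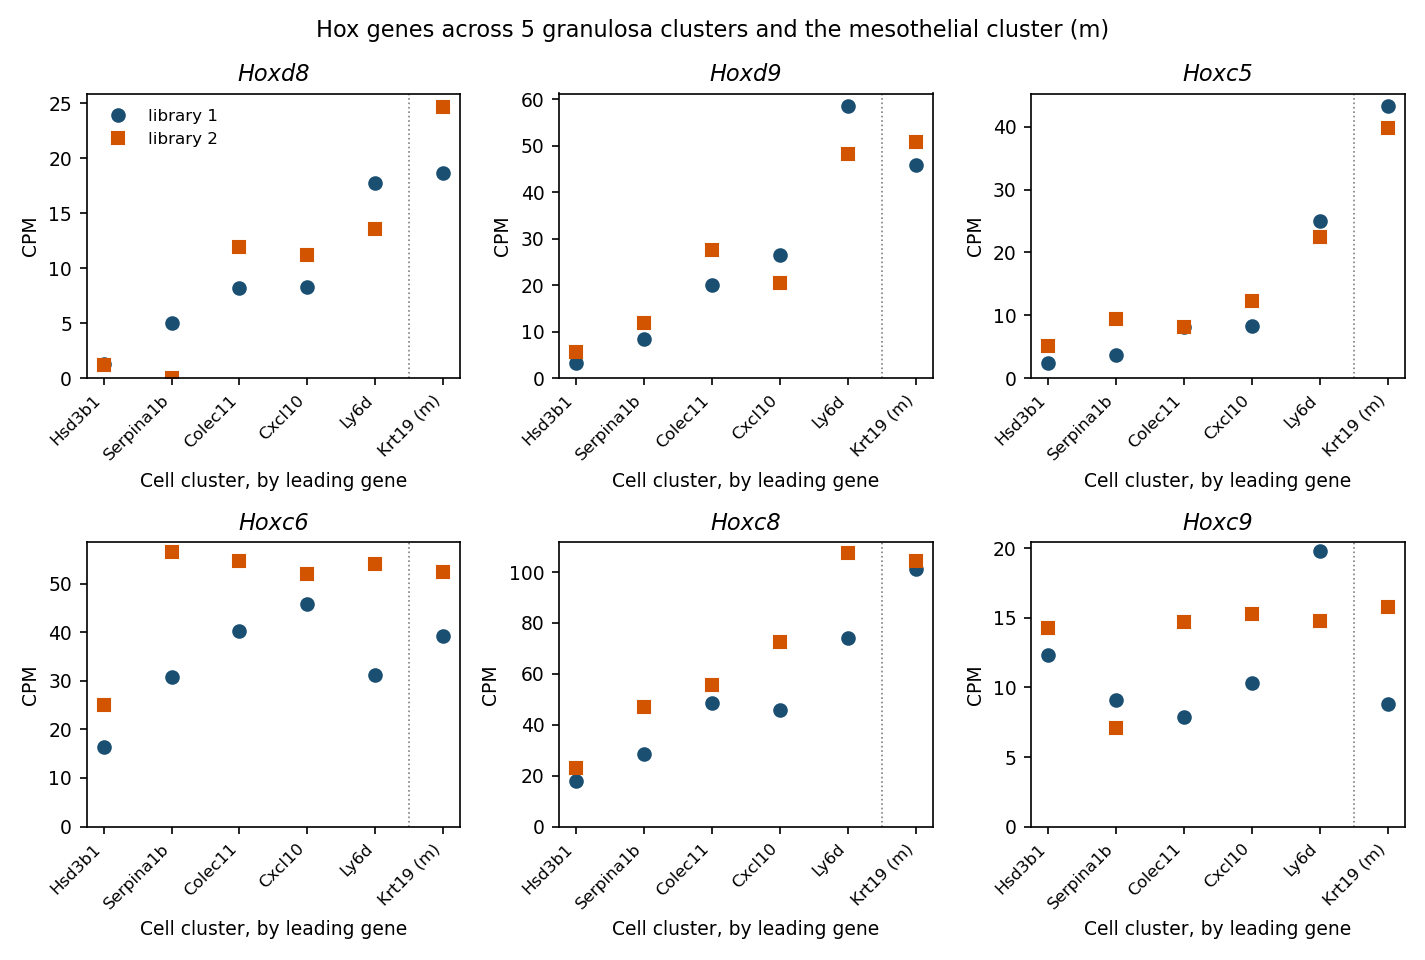
CPM (y axis) of 6 Hox genes in the 5 granulosa clusters and in mesothelial cells (x axis), by library. Hoxd8, Hoxd9, Hoxc5 and Hoxc8 are lowest in the Amh cluster (marked Hsd3b1) in library 1, where Hoxd9 is at 3.24, and Hoxd9 reaches 58.4 in the Ly6d cluster.

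Interstitial cells, the collagen-producing stroma, held the largest number of Hox UMIs. Against the mean of the other 5 types, 14 of the 25 members were higher (14.3% of all genes) and 0 lower (4.31% of all genes), with a median log2 difference of 2.22 against 0.12. At an unadjusted p under 0.05 in edgeR 17 were higher and 0 lower, and DESeq2 called 14 and 0. The higher genes were Hoxa2, Hoxa3, Hoxa5, Hoxa7, Hoxa9, Hoxb2, Hoxc4, Hoxc6, Hoxc8, Hoxc10 and Hoxd8 to Hoxd11. Against the other types, Hoxc6, Hoxc8 and Hoxc10 were also called higher in mesothelial and granulosa cells, and Hoxc4 and Hoxd8 in mesothelial cells. None of these Hoxc genes, nor Hoxd8, was called directly between mesothelial and interstitial cells in the main test. Hoxa5, Hoxa7 and Hoxa9 were also called higher in perivascular and endothelial cells. Members could pass the low-count filter through interstitial cells, so the count of 14 was partly set in advance. In comparisons with the other 5 types the reference is a mean of log levels over types. It is not defined for a gene with no UMI in a type. That held for 9 of the 25 in the interstitial comparison and for 6 to 9 in the others, so counts are also given against the sum of all other cells, here 17 higher and 1 lower (Hoxc13) of 24. For somatic types, germ cells held the most UMIs in that sum (16393888 and 27057172) and had the lowest Hox level. Counts of higher members against it therefore lean on the comparison with germ cells.

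Hoxd9 was the most abundant Hox transcript of interstitial cells, with 830 and 1442 UMIs (81.1 and 91.4 CPM; 1.88 ± 0.23, adjusted p = 7e-05). Hoxd10, which with Hoxd9 patterns the hindlimb and caudal spinal cord, had 294 and 575 UMIs (3.14 ± 0.30, adjusted p = 9.2e-06). Hoxc8 with 361 and 773 UMIs and Hoxc6 with 330 and 813 were next to Hoxd9 in number. Against the sum of all other cells the Hoxc8 difference was 0.92, under the 2-fold limit. Of 2 interstitial clusters led by cell cycle genes, that led by Pimreg, Cenpa and Ccnb1 (122 and 180 cells) had Hoxc4 at 65.7 and 57.5 CPM and Hoxd9 at 122 and 119, and that led by Pclaf, Hist1h2ap and Tk1 (195 and 268 cells) had Hoxc4 at 11.9 and 13.4 and Hoxd9 at 53.6 and 67.2, a description with no test.

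Perivascular cells, which wrap small vessels, had the highest Hoxa and Hoxb sums. Against the other 5 types, 9 of the 25 members were higher (5.70% of all genes) and 0 lower (2.36% of all genes), with a median log2 difference of 3.55 against -0.31. At an unadjusted p under 0.05 in edgeR 15 were higher and 0 lower, DESeq2 called 16 and 0, and the sum of all other cells as reference gave 9 and 0 of 25. Perivascular and interstitial cells were then compared directly, a comparison chosen after the levels were seen. It called 6 higher (3.16% of all genes) and 0 lower (3.30% of all genes), with a median of 0.88 against -0.34. The unadjusted counts in edgeR were 8 and 0, and DESeq2 called 9 and 0.

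Hoxb2, which acts in hindbrain patterning, was the most abundant of them, with 15 and 23 UMIs from 53 and 51 cells. Its level of 56.7 and 95.3 CPM compared with 4.10 and 6.15 in interstitial cells (3.71 ± 0.50, adjusted p = 0.0017), and was at least 683-fold higher than in granulosa cells, which had none. Hoxa5 stood at 56.7 and 53.8 CPM against 6.06 and 9.19 (2.69 ± 0.50, adjusted p = 0.0064). Hoxa7 (2.23 ± 0.60, adjusted p = 0.046), Hoxb4 (3.89 ± 0.85, adjusted p = 0.016), Hoxb5 (6.13 ± 1.33, adjusted p = 0.015) and Hoxb8 (6.58 ± 0.97, adjusted p = 0.0021) were the others. The last 3 rested on 11, 8 and 9 UMIs in perivascular cells. Such genes could pass the low-count filter through perivascular cells, where they were high. Their being higher, and the counts of higher members that include them, were thus partly set in advance. Hoxc5 showed how thin the counts were, with 10 UMIs in library 1 and 0 in library 2.

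Endothelial cells, the lining of vessels, combined Hoxa, Hoxb and Hoxd transcripts with almost none from Hoxc. Against the other 5 types, 9 of the 25 members were higher (10.2% of all genes) and 2 lower (5.31% of all genes), with a median log2 difference of 1.86 against -0.15, and against the sum of all other cells 7 were higher and 5 lower of 24. Directly against interstitial cells, also chosen after the levels were seen, 4 were higher (9.34% of all genes) and 6 lower (10.8% of all genes), with a median of -0.72 against -0.23. All 6 lower genes but Hoxd10 were Hoxc genes, and the Hoxd10 call was lost with DESeq2 (adjusted p = 0.068), with cells gated one by one (0.060) and with cells thinned to equal depth (0.069). The Hoxc genes passed the low-count filter through other types, so their being lower was largely set in advance. Hoxc8 had 0 UMIs in either library, at least 19.7-fold lower than in interstitial and at least 46.4-fold lower than in mesothelial cells. Hoxc9 and Hoxc10 also had 0, at least 3.59-fold and 3.31-fold lower than in interstitial cells. Hoxc6 had 0 and 1 UMI, a ratio of 59.4 (95% counting interval 10.6 to 2350), and Hoxc4 1 and 1 (-3.92 ± 0.86, adjusted p = 0.0060).

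The higher genes all came from Hoxb. Hoxb7 stood at 21.9 and 17.8 CPM in endothelial and 0.489 and 1.65 in interstitial cells (4.14 ± 0.72, adjusted p = 0.0013), and Hoxb8 at 9.38 and 7.63 against 0.0977 and 0.190 (5.71 ± 0.88, adjusted p = 0.00076). Hoxb4 (3.57 ± 0.72, adjusted p = 0.0034) had 11 and 9 UMIs. Both Hoxb4 and Hoxb8 were low in the other types and passed the low-count filter largely through endothelial and perivascular cells. Their being higher was thus largely set in advance. Hoxb9 had 20 and 4 UMIs (1.64 ± 0.45, adjusted p = 0.019) and its difference was 0.80 without library 1. Endothelial cells of library 2 also carried more perivascular and stromal transcripts, with Rgs5 at 21.9 CPM in library 1 and 216 in library 2 and Col1a2 at 13.6 and 122, beside Hoxd sums of 60.5 and 145. The part of these transcripts in the Hox levels was not tested.

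**Figure D4:**
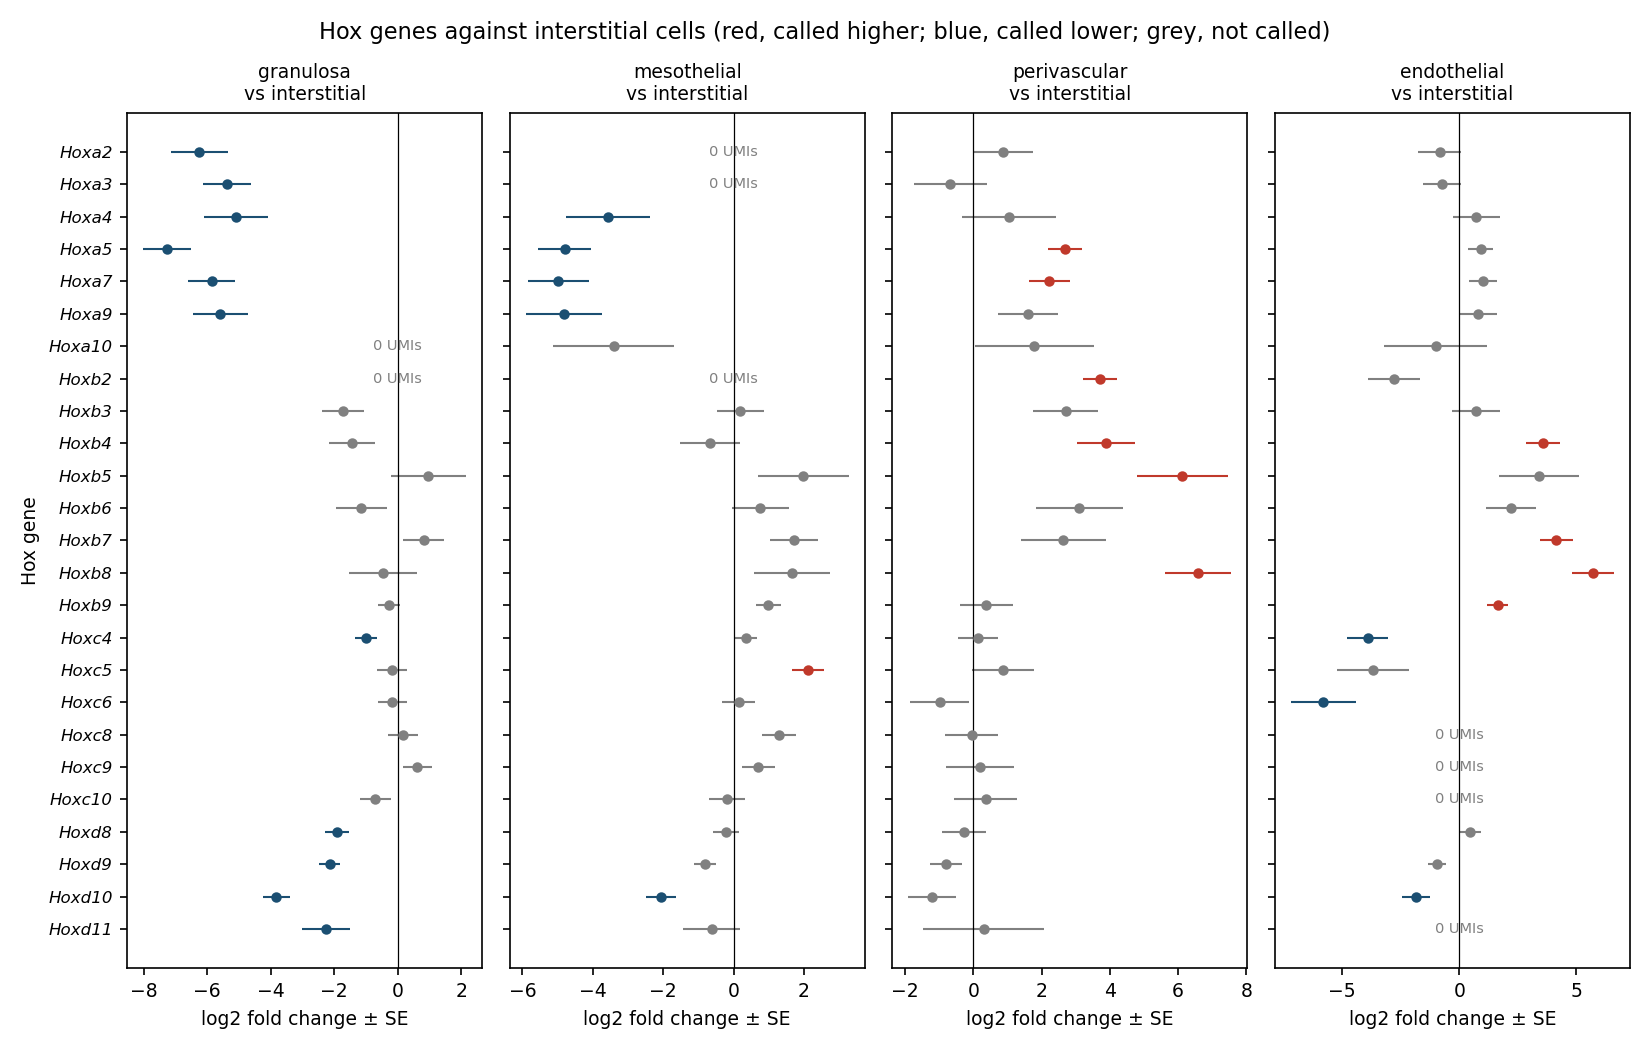
Log2 difference from interstitial cells (x axis, points with SE bars) of the 25 tested Hox genes (y axis) in granulosa, mesothelial, perivascular and endothelial cells (panels), with genes lacking any UMI in a type marked as such. Hoxa genes lie to the left in granulosa and mesothelial cells, and Hoxb4, Hoxb7, Hoxb8 and Hoxb9 lie to the right in endothelial cells.

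Of the tested members not yet described, Hoxb3 had 7 and 30 UMIs in interstitial cells, 2 and 10 in mesothelial and 7 and 4 in granulosa cells, and was called only as higher in perivascular cells (2 and 3 UMIs) and lower in germ cells among the comparisons made. Hoxb6 had 5 and 11 UMIs in interstitial, 2 and 6 in mesothelial and 3 and 4 in granulosa cells, and was called only as lower in germ cells. Hoxc10 stood at 4.20 and 9.38 CPM in interstitial, 5.37 and 6.44 in mesothelial and 3.61 and 5.38 in granulosa cells, with overlapping ranges. Hoxa10 rested mainly on library 2, with 3 and 41 UMIs in interstitial cells. Hoxd11 had 6 and 34 UMIs there, likewise mostly in library 2.

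Mesothelial and granulosa cells were also set against the other 5 types. In mesothelial cells 8 of the 25 were higher (13.0% of all genes) and 2 lower (4.01% of all genes), with a median of 0.67 against 0.09, and against the sum of all other cells 10 and 5 of 24. All 6 tested Hoxc genes were among the 8, with Hoxb9 (1.38 ± 0.31, adjusted p = 0.0060) and Hoxd8, whose difference of 1.05 ± 0.31 was 0.92 without library 1 and 0.46 with cells gated one by one. Of these Hoxc genes, Hoxc4, Hoxc6, Hoxc8 and Hoxc10 were also called higher in interstitial cells against the other types. Only Hoxc5 was called higher directly against interstitial cells in the main test. The lower genes were Hoxa3 and Hoxa7, and neither was called with cells gated one by one (adjusted p = 0.22 and 0.058). Both passed the low-count filter through other types, so their being lower was largely set in advance. In granulosa cells 4 were higher, near the share over all genes (15.3%), which were Hoxc6, Hoxc8, Hoxc9 and Hoxc10. All 4 were also called higher in mesothelial cells, and none was called higher in granulosa cells directly against interstitial or mesothelial cells. They therefore do not mark granulosa cells. Hoxc8, Hoxc9 and Hoxc10 had no UMI in endothelial cells, so their reference is not defined. The lower genes numbered 5 (5.51% of all genes) and were Hoxa4, Hoxa5, Hoxa7, Hoxa9 and Hoxd10. With 6 and 9 Hoxa UMIs in granulosa cells, the Hoxa genes passed the low-count filter through other types. Their being lower, and the count that includes them, were thus largely set in advance. The calls of Hoxa5, Hoxa7, Hoxa9 and Hoxd10 were lost with cells thinned to equal depth, and that of Hoxa9 also with cells gated one by one. The median was -1.44 against 0.15. The Hoxc10 call was lost with doublets kept (adjusted p = 0.084), with the stricter cell filter (0.090) and against the sum of all other cells (0.72, adjusted p = 0.19), and the Hoxd10 call with cells gated one by one (-0.84, adjusted p = 0.20). The library block gave 8 lower, DESeq2 called 11 lower, and against the sum of all other cells 3 were higher and 9 lower of 22.

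Germ cells had the fewest Hox transcripts CPM. Against the other 5 types, 15 of the 25 tested members were lower (20.5% of all genes) and 0 higher (31.6% of all genes), with a median of -4.24 against 0.27. The tested members passed the low-count filter mostly through somatic types, and Hoxa13 and Hoxc13, counted mainly in germ cells, did not pass. That members were lower and none higher was thus largely set in advance. At an unadjusted p under 0.05 in edgeR 16 were lower and 0 higher, and DESeq2 called 23 and 0. Against the sum of all other cells 22 were lower and 2 higher (Hoxa13 and Hoxc13) of 25. The shares over all genes in these alternatives are not given here, so their counts cannot be judged against a background. Hoxd9 had 41 and 104 UMIs in 16393888 and 27057172, or 2.50 and 3.84 CPM (-3.74 ± 0.34, adjusted p = 1e-06), and Hoxd8 0.427 and 1.44 (-4.20 ± 0.42, adjusted p = 2.3e-06). Hoxc6 stood at 0.366 and 2.88, and Hoxc8 at 0.244 and 2.29. As a share of the granulosa level, Hoxc6 was at 1.20% and 6.07%, Hoxc8 at 0.722% and 3.48%, Hoxd8 at 7.70% and 15.7% and Hoxd9 at 17.3% and 14.2%, while the summed granulosa markers stood at 0.523% and 4.82%. As a share of the interstitial level, Hoxd8 was at 1.80% and 5.23% and Hoxd9 at 3.08% and 4.21%, with the interstitial markers at 0.293% and 0.600%. The part of somatic transcripts in these values was not tested.

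Of the terminal paralogs of group 13, which pattern the caudal end of the embryo, 3 of 4 were counted mostly or wholly in germ cells, and Hoxd13 had 0 UMIs there and 2 in somatic cells. Hoxa13 had 6 and 10 UMIs in germ cells and 0 in all somatic cells. It was at least 3.19-fold higher than in interstitial and 3.35-fold higher than in granulosa cells. Perivascular, mesothelial and endothelial cells held too few UMIs for a fold bound, so the 0 there does not set germ cells apart from them. Hoxb13 had 2 and 4 UMIs in germ cells and 0 elsewhere. These were too few for a fold bound, so the 0 elsewhere does not set germ cells apart from the other types. Hoxc13 had 14 and 34 UMIs in germ cells (0.854 and 1.26 CPM), in 13 and 32 cells with at most 3 in a cell, and 3 in all somatic cells. Hoxc13 was at least 9.58-fold higher than in interstitial cells, while no fold bound could be set against perivascular or endothelial cells. None of the 4 passed the low-count filter of the main test. Hoxa4 had 15 and 24 UMIs in germ cells (0.915 and 0.887 CPM), from 14 and 23 cells, and was not called (0.50 ± 0.56). Evx1, a homeobox gene beside Hoxa13 singled out after its values were seen, stood at 0.671 and 0.370 CPM in germ cells. It had no UMI in the other types, with the same limit of depth.

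Genes that work with the Hox proteins or lie in their clusters were counted from lists. Of 9 TALE homeodomain genes, whose products bind DNA with Hox proteins, 5 were higher and 0 lower in interstitial cells against the other types (14.3% and 4.31% of all genes), and 4 were lower and 1 higher in granulosa against interstitial cells (12.6% and 14.8% of all genes). Pknox2 stood at 54.5 and 52.0 CPM in interstitial and 1.83 and 2.36 in granulosa cells (-4.77 ± 0.27). Pbx4 was called higher in mesothelial cells against the other types (5.07 ± 0.61), at 10.1 and 12.4 CPM. It stood at 7.56 and 6.10 in germ, 3.71 and 3.15 in granulosa and 1.27 and 0.761 in interstitial cells. Perivascular and endothelial cells had no Pbx4 UMI, so its reference is not defined and the fold does not set mesothelial cells apart from germ cells. Meis3 was lower in germ cells (-3.60 ± 0.57). Of 20 Polycomb and trithorax genes, which keep Hox genes silent or active, 7 were higher and 4 lower in germ cells (31.6% and 20.5% of all genes) and 3 higher and 0 lower in granulosa against interstitial cells (14.8% and 12.6% of all genes), so that apart from the 0 these counts were near the shares over all genes. Kdm6b (-2.07 ± 0.20), Kmt2a (-2.01 ± 0.18) and Pcgf2 (-1.92 ± 0.19) were lower in germ cells and Phc1 (1.70 ± 0.12) was higher.

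Retinoic acid is a known inducer of anterior Hox genes. Of 16 listed Cdx and retinoic acid genes, 10 were tested, and in granulosa against interstitial cells 2 were higher and 3 lower (14.8% and 12.6% of all genes). Rarb, a retinoic acid receptor, stood at 0.153 and 0.131 CPM in granulosa and 7.82 and 7.92 in interstitial cells (-5.68 ± 0.55), and Aldh1a1, which makes retinoic acid, at 555 and 545 against 13.2 and 17.2 (5.11 ± 0.57). Aldh1a2 stood at 296 and 248 in mesothelial cells and 1.04 and 0 in endothelial cells, and Rarg was lower in germ cells (-5.83 ± 0.57). Of 4 tested transcripts within or beside the clusters, 3 were lower and 0 higher in granulosa against interstitial cells (12.6% and 14.8% of all genes). Hotairm1, Hoxaas3 and Hoxb3os stood at 0 to 0.262 CPM in granulosa cells and, like Rarb, passed the low-count filter through other types. Their being lower was thus largely set in advance. Hotairm1 stood at 0.153 and 0.262 against 7.62 and 7.42 (-5.29 ± 0.64), Hoxaas3, opposite Hoxa3 and Hoxa7, at 0 against 2.93 and 4.94, and Hoxb3os at 26.5 and 37.3 in perivascular and 1.76 and 3.04 in interstitial cells. Hoxd3os1 was lower in germ cells (-3.90 ± 0.44). Of 8 tested homeobox genes outside the clusters, 5 were higher and 0 lower in mesothelial against interstitial cells (12.6% and 10.8% of all genes), among them Irx3 (247 and 233 against 1.27 and 0.761) and Irx5 (137 and 123 against 0.293 and 0.507). Irx3 was itself among the markers from which granulosa cells were named. Lhx8 (8.56 ± 0.39) and Nobox (7.67 ± 0.20), oocyte factors, were higher in germ cells. Nobox was among the markers from which germ cells were named, so its being higher there was set in advance.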

How the data were processed

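Single-cell 3′ RNA libraries of whole ovaries were prepared by the authors from 2 pools of pups. The deposited files hold UMI counts per gene and cell, which the authors made with Cell Ranger 3.0.2 on GRCm38 per the labels. The labels name v2 chemistry and the study's methods v3, which was not resolved here. Cell filters before deposit, and whether counting used strand, are not given in the sources used here. The deposit held 4094 and 4847 cells with 54471790 and 59074480 UMIs (median 8315.5 and 5798 a cell), and 21 barcodes occurred in both libraries.

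Barcodes with under 500 genes, or with more than 10% of UMIs from mitochondrial genes, were dropped, which left 3738 and 4464. Doublet scores were cut at 0.224, the threshold of library 1, in both libraries, because that of library 2 (0.519) marked 2 cells. This choice was made after the scores were seen, and removed 102 and 93 cells. The rest were clustered in scanpy 1.11.5 without Hox genes (30 principal components, 15 neighbours, Leiden resolution 1). A cluster was named from at least 3 of its listed markers, and 1 with as many markers of another type was left unnamed, a rule added after the clusters were seen. The members and lists were chosen with earlier results of these data known. Each member that passed the filter was named with its values or by count, and of each other list at most 4 called genes by size of fold. A few of these genes are not reported here by name.

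UMI counts were summed per library and type. Differences were tested with edgeR 4.0.16 (R 4.3.3; filterByExpr, TMM, quasi-likelihood, Benjamini-Hochberg over 14642 genes), fitted over all 6 types. Ratios against 1 to 3 UMIs have 95% counting intervals, and 0 was set to a floor of 3 UMIs over both libraries for bounds. Intervals and floors cover counting error only. All types in a library share their animals, so the library number pairs them by design, and deviations from type means correlated between 0.0111 and 0.266 over pairs of types. Alternatives were DESeq2 1.42.0, library size scaling, no low-count filter, a library block, each library left out, cells thinned to 2000 UMIs, cells gated one by one, doublets kept, a stricter cell filter and another reference. The method was tested on simulated data.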

Additional observations from a re-analysis of the deposited data

Results flagged for a closer look

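Hox transcripts were also counted in cells that entered no comparison, above what a count of 0 would allow. Immune cells had 40.5 Hox CPM (29 UMIs, where 3 UMIs would be 4.19 CPM). The unnamed cluster led by Ppp2r2b, Gbp2 and Hsd17b2, which had as many germ as granulosa markers, had 166 CPM (120 UMIs, 3 UMIs being 4.16 CPM). The unnamed cluster led by Hba-a1, Hbb-bs and Hbb-bt had 153 CPM (28 UMIs, 3 UMIs being 16.4 CPM). The summed interstitial markers stood at 1261 and 2367 CPM in the Ppp2r2b cluster and at 4248 and 4573 in the Hba-a1 cluster. They stood at 11389 and 10867 CPM in interstitial cells. Granulosa markers summed to 1005 and 1070 CPM in the Ppp2r2b cluster. Immune cells carried 5.07% and 8.0% of the interstitial marker level of interstitial cells. The part of such transcripts in the Hox UMIs of these 3 groups of cells was not tested.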

How the results depend on the processing

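The 112 values of called genes were recomputed under 1256 alternatives, of which 1191 kept direction and call, 65 lost the call and 0 changed direction. The 112 were chosen as called in these same data, so fold change alone, which kept all 112, could hardly do otherwise. Values that could no longer be tested are not among the 1256. With thinning 45 kept the call, 26 lost it and the rest could not be tested. Library size scaling moved no count of called members beyond 1.5 times. DESeq2 gave 16 members higher in perivascular cells (9 in the main analysis), 11 lower in granulosa cells (5), 23 lower in germ cells (15) and 3 higher in mesothelial against interstitial cells (1). The library block, which pairs types of the same animals, gave 8 lower in granulosa cells and 3 higher in mesothelial against interstitial cells, and among the called genes ended only the call of Hoxd11 in granulosa against interstitial cells. Without the low-count filter 36 members were tested, with 15 higher in perivascular, 8 lower in granulosa, 5 lower in endothelial and 2 higher in germ cells, and 3 higher in mesothelial against interstitial cells. The stricter cell filter also gave 3 there, and with doublets kept 1 member was lower in endothelial cells. Against the sum of all other cells, 1 was lower in interstitial, 5 in mesothelial, 9 in granulosa and 5 in endothelial cells, and 2 were higher in germ cells. Cells gated one by one gave 0 lower in mesothelial, 3 lower in granulosa and 3 lower in granulosa against mesothelial cells.

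Thinning to equal depth left 12 members testable. It gave 5 higher in perivascular, 5 higher and 0 lower in mesothelial, 2 higher and 0 lower in granulosa, 0 higher and 0 lower in endothelial and 3 lower in germ cells. It gave 7 lower in granulosa and 4 lower in mesothelial against interstitial cells, 2 lower in granulosa against mesothelial cells, and 0 higher and 2 lower in endothelial against interstitial cells. The thinned sums CPM were 184 for Hoxa in perivascular cells (147 unthinned), 3.78 for Hoxa (2.19) and 2.01 for Hoxb (0.791) in germ cells, 15.8 for Hoxb in mesothelial (18.8) and 50.4 in endothelial cells (67.5), and 96.0 for Hoxc in perivascular (137) and 199 in mesothelial cells (237). The shares of cells with any Hox UMI were 45.9%, 59.7%, 43.6%, 26.4%, 27.3% and 2.80% thinned and 80.8%, 81.7%, 92.9%, 69.7%, 74.2% and 36.9% unthinned in interstitial, perivascular, mesothelial, granulosa, endothelial and germ cells.

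Leaving out a library left 1 sample per type and no residual degrees of freedom, so these are values with no test and the 2-fold limit alone was used, an alternative added after seeing the data. Both libraries then gave 3 lower in interstitial, 20 higher in perivascular, 9 lower in mesothelial, 12 lower in granulosa, 8 lower in endothelial and 24 lower in germ cells. They gave 4 higher in mesothelial against interstitial, 10 lower in granulosa against mesothelial, and 11 higher and 2 lower in perivascular against interstitial cells. With either library out the counts were 3 to 4 lower in interstitial, 20 to 22 higher and 1 lower in perivascular, 8 to 9 lower in mesothelial, 12 to 15 lower in granulosa, 13 to 14 higher and 7 to 10 lower in endothelial and 23 to 24 lower in germ cells. They were 1 higher in granulosa and 5 higher in mesothelial against interstitial, 0 to 2 higher and 8 to 11 lower in granulosa against mesothelial, 5 to 9 higher and 11 to 13 lower in endothelial against interstitial, and 12 to 13 higher and 2 to 4 lower in perivascular against interstitial cells. Depth limits perivascular and endothelial cells most, where 3 UMIs over both libraries were already 5.93 CPM in perivascular cells.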
